A study of Gloeophyllum trabeum and Trametes versicolor with 18 samples.

Results

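*Trametes versicolor* is a white-rot fungus, and the 50 transcripts described here were those of its 15606 measured transcripts that stood lower on high-melanin fungal necromass than on both other carbon sources while keeping a like level on those. The members were chosen by their level in TPM (a level per length, scaled so that every library has the same sum). For each carbon source the mean TPM of 3 libraries was taken and 1 added, and a transcript was kept where the low-melanin and the glucose values were each at least 2.5 times the high-melanin value and differed from each other by less than 1.5-fold. The highest high-melanin library also had to lie below the lowest of the other 6 libraries, a condition that removed 0 transcripts once the others were met. Every comparison between carbon sources below therefore describes the choice and is not a test of it.

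The study grew 2 wood-decay fungi in liquid culture and sequenced RNA from their biomass after 7 days, 18 libraries in all, of which the 9 of *T. versicolor* strain A1-ATF are used here. Cultures held Highley's mineral medium with 0.45% (w/v) high-melanin necromass, 0.45% low-melanin necromass or 1% glucose, so necromass and glucose were given at different concentrations, and each carbon source had 3 libraries. Separate cultures are not stated in the labels for the 3 libraries of a carbon source, so their spread may be technical. Totals ran from 18301303 to 22805071 estimated counts on high-melanin necromass, from 18676346 to 22576334 on low-melanin necromass and from 20745703 to 26514709 on glucose.

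Necromass is dead fungal biomass, which is rich in chitin, glucans and protein. Melanins are dark polyphenolic pigments of fungal cell walls, and necromass with more melanin generally decays more slowly. White-rot fungi are known for oxidative enzymes that break down lignin, itself a polyphenol. The tables used here pair the transcripts with no gene function, so members are named by identifier, no role is given to any of them, and no gene list by function was made.

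The members were reduced on high-melanin necromass but none was lost from it. All 50 had counts in every library, the lowest being 6 estimated counts in a high-melanin library. Across members the mean level ran from 0.616 to 293 TPM on high-melanin necromass (median 15.4), from 3.19 to 1027 TPM on low-melanin necromass (median 57.4) and from 3.93 to 1137 TPM on glucose (median 59.1). The median member kept 26.5% of its low-melanin level and 26.5% of its glucose level on high-melanin necromass, and what was kept ran from 4.91% to 37.9% of the low-melanin level and from 5.01% to 35.9% of the glucose level. In 44 of the 50 the lowest low-melanin or glucose library lay at least 2 times above the highest high-melanin library. The rule asked for no overlap and for means at least 2.5-fold apart, so this count describes the choice. Its share over all transcripts was not taken. In RNA from whole biomass, fewer cells with a transcript and less of it per cell cannot be told apart. The plot of all members by library shows this gap in each row.

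**Figure D1:**
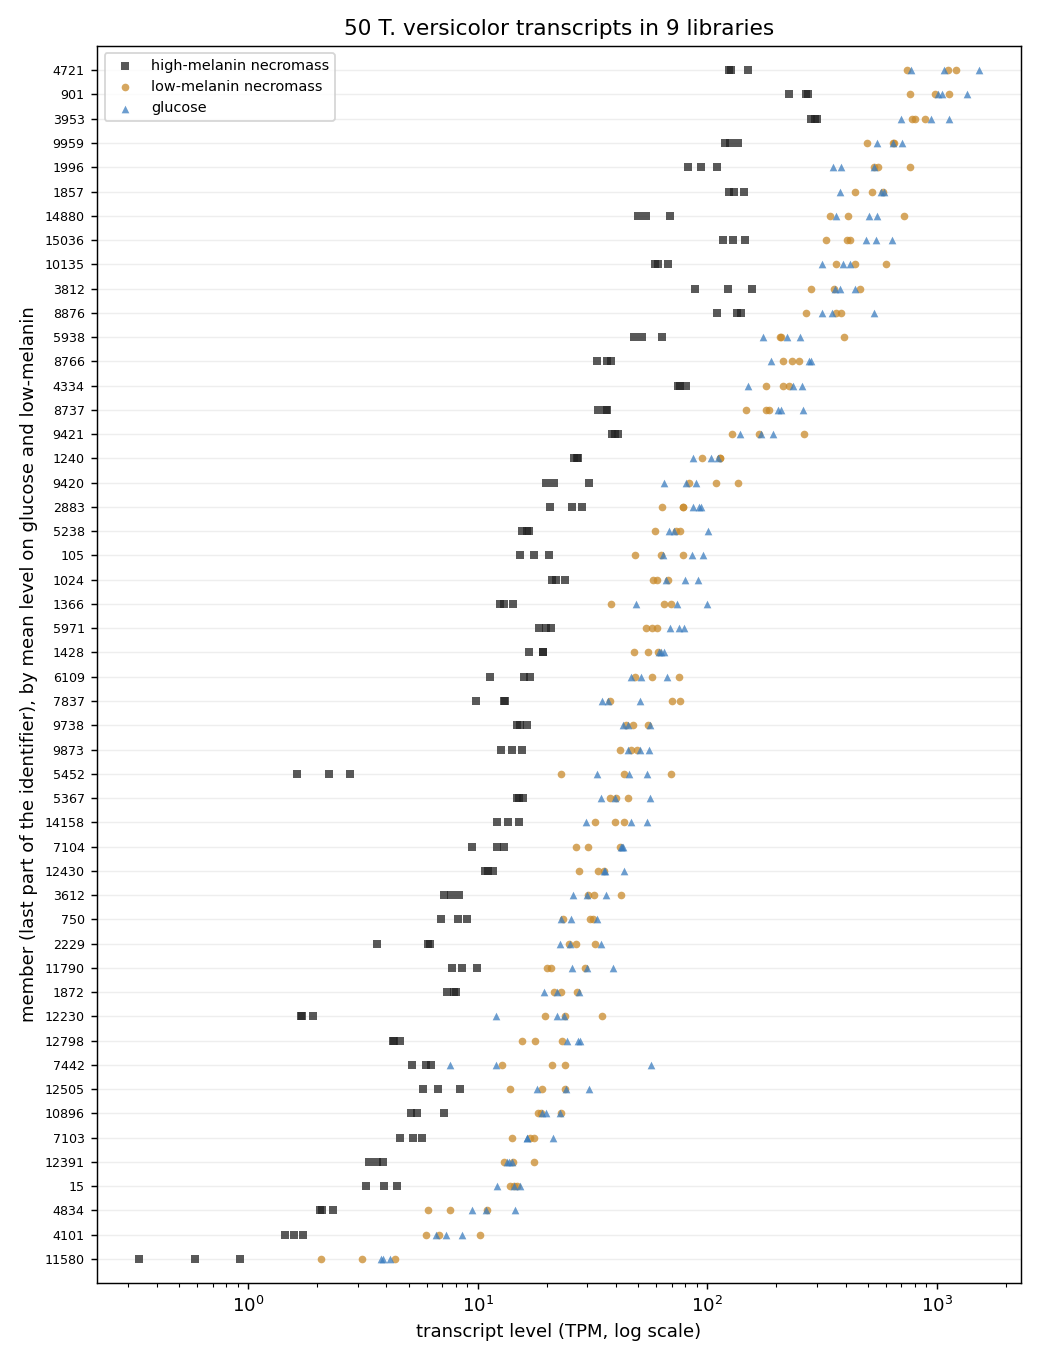
Level of each of the 50 members (rows, ordered by mean level on glucose and low-melanin necromass) in the 9 libraries, in TPM on a log axis; squares are high-melanin, circles low-melanin and triangles glucose libraries, 3 of each. The squares lie left of the other symbols in every row, as the rule requires, with the widest gap at 5452 (8.30 times) and the narrowest at 7442 (1.21 times).

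The members differed in level more than in how far they were reduced. The rule itself sets a least reduction of 2.5-fold in mean TPM + 1. It sets no separate threshold on level, but the added 1 makes it harder for low levels to pass. Over the glucose and low-melanin libraries 17 averaged at least 100 TPM, 30 from 10 to 100 TPM and 3 under 10 TPM. The smaller of the glucose and low-melanin ratios to high-melanin necromass (mean TPM + 1) had a median of 3.15, and it was at least 5 in 6 members, at least 4 in 13 and under 3 in 21. Its median was 3.94 among the 17 most abundant members, 3.06 among the 30 of middle level and 2.92 among the 3 lowest. The added 1 lowers this ratio most at low levels. Without it, the median share of the low-melanin level kept on high-melanin necromass was 21.4%, 29.7% and 20.8% in the same order. For the glucose level it was 23.5%, 27.7% and 18.6%, so reduction did not simply grow with level. In sum the members held 0.216% ± 0.0075 of TPM in high-melanin libraries, 0.902% ± 0.16 in low-melanin libraries and 0.947% ± 0.088 in glucose libraries (SD, n = 3 each). As a share of estimated counts, which is not divided by length, these values were 0.242% ± 0.0030, 0.952% ± 0.045 and 1.13% ± 0.13. Within a group the median coefficient of variation of members in TPM was 10.1% on high-melanin necromass, 17.0% on low-melanin necromass and 17.3% on glucose. Over all transcripts averaging at least 1 TPM these medians were 10.9%, 15.7% and 14.9%, with high-melanin necromass the lowest there too. In CPM the members' medians were 9.76%, 10.9% and 16.8%, the low-melanin value being lower than in TPM. The background medians in CPM were 8.74%, 8.49% and 14.6%, so there high-melanin necromass was not the lowest. The members' medians stood above them in each group.

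**Figure D2:**
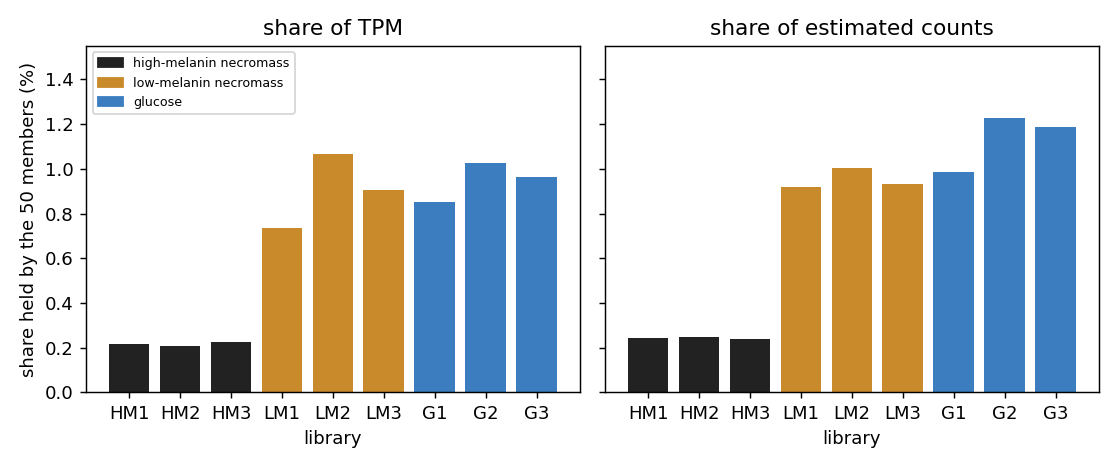
Share of TPM (left) and of estimated counts (right) held by the 50 members in each library, as bars that start at 0; HM, LM and G are high-melanin, low-melanin and glucose libraries, numbered by replicate. The high-melanin bars reach 0.208% to 0.223% of TPM, while the lowest of the others is low-melanin replicate 1 at 0.736%.

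Where the members lie among all transcripts follows from the counts at each step of the rule. A glucose level at least 2.5 times the high-melanin level was met by 673 of the 15606 transcripts and a low-melanin level that much higher by 389, and 97 met both. Of those 97, 50 had like levels on low-melanin necromass and glucose and are the members. Another 46 also showed no overlap but differed more between those carbon sources, 14 of them being higher on low-melanin necromass and 32 lower than on glucose. The same rule with the carbon sources exchanged chose 216 transcripts lower on low-melanin necromass alone and 173 lower on glucose alone. Transcripts higher on a single carbon source numbered 152 for high-melanin necromass, 99 for low-melanin necromass and 260 for glucose. With CPM (counts scaled by library size and by TMM, and not divided by length) in place of TPM, the rule for lower on high-melanin necromass alone chose 58, and the exchanged rules chose 184, 183, 129, 153 and 213 in the same order. No test was made between these numbers.

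**Figure D3:**
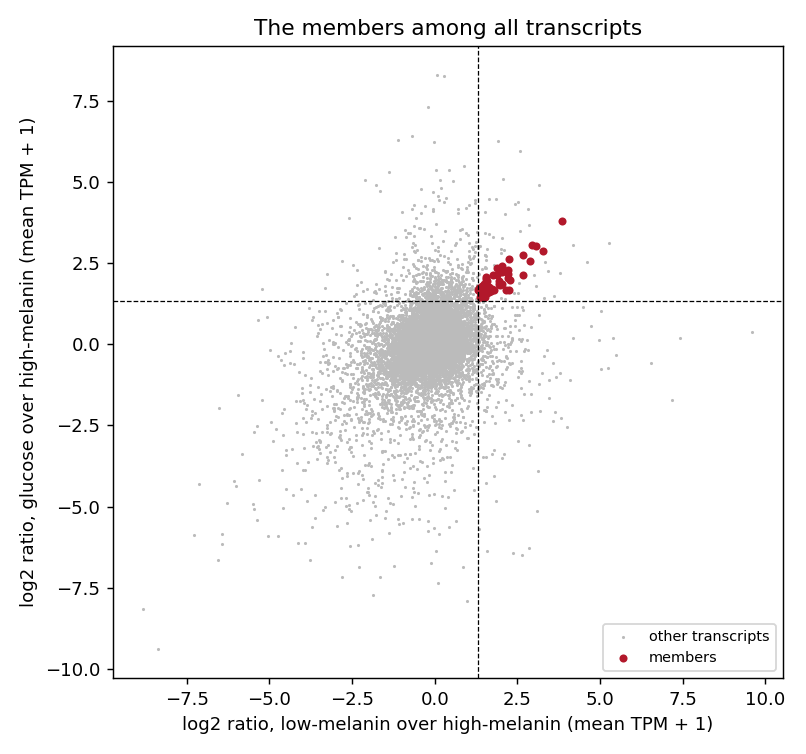
Log2 ratio of low-melanin over high-melanin necromass (horizontal) and of glucose over high-melanin necromass (vertical) for all 15606 transcripts, from mean TPM plus 1, with the 50 members in red and the 2.5-fold thresholds as broken lines. The members form a band along the diagonal of the upper right corner, where 97 transcripts lie.

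The most abundant member was jgi.p|Traver1|4721, with 127, 124 and 151 TPM on high-melanin necromass, 742, 1216 and 1121 TPM on low-melanin necromass and 775, 1073 and 1519 TPM on glucose. The low-melanin and glucose libraries overlapped, with the highest library on glucose, and the high-melanin libraries stood below all of them. Its log2 fold changes in edgeR were -3.11 ± 0.22 for high-melanin against low-melanin necromass and -3.10 ± 0.22 for high-melanin necromass against glucose (SE). Its estimated counts were further than 0.01 from whole numbers in libraries of all 3 carbon sources. Examples are 3965.84 in high-melanin replicate 1, 34177.4 in low-melanin replicate 2 and 25424.5 in glucose replicate 1. This happens where reads fit more than 1 transcript, so its level is uncertain. No sequence was examined for this. Such counts also occurred in jgi.p|Traver1|3812 (5060.79 in low-melanin replicate 3) and jgi.p|Traver1|12230 (1310.94 in low-melanin replicate 2). In their other libraries the counts were whole. These 3 are 6% of the members, and 6.23% of all transcripts had such counts.

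Next in level, jgi.p|Traver1|901 had 273, 227 and 268 TPM on high-melanin necromass, 763, 1127 and 981 TPM on low-melanin necromass and 1009, 1347 and 1055 TPM on glucose. It and jgi.p|Traver1|3953 kept the highest levels of all members on high-melanin necromass. Transcript jgi.p|Traver1|3953 had 301, 284 and 294 TPM there, 779, 888 and 803 TPM on low-melanin necromass and 698, 1124 and 943 TPM on glucose. Their log2 fold changes were -2.08 ± 0.14 and -1.70 ± 0.17 against low-melanin necromass, and -2.18 ± 0.14 and -1.66 ± 0.17 against glucose (SE). In both, the low-melanin and glucose libraries overlapped and the high-melanin libraries lay below all of them.

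Transcript jgi.p|Traver1|9959 averaged 128 ± 8.5 TPM on high-melanin necromass, 597 ± 87 TPM on low-melanin necromass and 633 ± 78 TPM on glucose (SD, n = 3 each). Close to it on high-melanin necromass, jgi.p|Traver1|1857 averaged 133 ± 11, 515 ± 72 and 514 ± 117 TPM in the same order. For jgi.p|Traver1|3812 the values were 122 ± 34, 368 ± 91 and 393 ± 42 TPM. In each of these the low-melanin and glucose libraries overlapped. In jgi.p|Traver1|15036 they did not, with 131 ± 15, 385 ± 49 and 557 ± 73 TPM, its highest low-melanin library at 419 TPM lying below its lowest glucose library at 493 TPM. It was the member with the lowest ratio of low-melanin necromass to glucose, 0.692 in mean TPM + 1.

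Another set of abundant members leaned the other way. Transcript jgi.p|Traver1|1996 had 109.8, 82.7 and 93.9 TPM on high-melanin necromass, 554, 762 and 534 TPM on low-melanin necromass and 352, 532 and 383 TPM on glucose. Here every low-melanin library lay above every glucose library. For jgi.p|Traver1|10135 the values were 59.4, 67.5 and 60.7 TPM, then 365, 598 and 439.9 TPM, then 317, 416 and 389 TPM, and the low-melanin and glucose libraries overlapped. Their log2 fold changes were -2.91 ± 0.21 and -3.10 ± 0.17 against low-melanin necromass but -2.05 ± 0.20 and -2.46 ± 0.16 against glucose (SE).

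The largest reductions were not all in abundant members. Transcript jgi.p|Traver1|5452 had 1.63, 2.79 and 2.24 TPM on high-melanin necromass, 23.1, 69.2 and 43.2 TPM on low-melanin necromass and 54.4, 32.9 and 45.4 TPM on glucose. Its ratio of 14.1 by the rule was the highest among the members, and its log2 fold changes were -4.50 ± 0.36 against low-melanin necromass and -4.27 ± 0.35 against glucose (SE). Levels on the other carbon sources varied widely between libraries, with a coefficient of variation of 36.1% over the 6. Transcript jgi.p|Traver1|12230 was at 1.72, 1.92 and 1.70 TPM, then 19.6, 34.7 and 24.1 TPM, then 12.0, 22.2 and 23.8 TPM in the same order of carbon sources. Its log2 fold changes were -4.03 ± 0.28 and -3.48 ± 0.28 (SE), and its estimated count was further than 0.01 from a whole number in low-melanin replicate 2.

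Members with large ratios also stood among the more abundant ones. Transcript jgi.p|Traver1|8766 averaged 35.9 ± 2.6 TPM on high-melanin necromass, 233 ± 18 TPM on low-melanin necromass and 249 ± 51 TPM on glucose, with log2 fold changes of -2.88 ± 0.16 and -2.85 ± 0.16 (SE). Transcript jgi.p|Traver1|8737 averaged 35.3 ± 1.8, 171 ± 20 and 224 ± 32 TPM, with log2 fold changes of -2.46 ± 0.12 and -2.70 ± 0.12 (SE). The steadiest members over the low-melanin and glucose libraries were jgi.p|Traver1|15, jgi.p|Traver1|10896 and jgi.p|Traver1|9873, with coefficients of variation of 7.73%, 10.1% and 10.3%. The first of them had 3.90, 3.25 and 4.45 TPM on high-melanin necromass, 13.8, 14.4 and 14.7 TPM on low-melanin necromass and 12.1, 14.4 and 15.2 TPM on glucose. For jgi.p|Traver1|10896 the means were 5.89 ± 1.1, 20.04 ± 2.5 and 20.6 ± 2.0 TPM, and for jgi.p|Traver1|9873 they were 14.1 ± 1.5, 45.7 ± 3.9 and 50.6 ± 5.3 TPM (SD, n = 3 each).

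Short transcripts made up part of the members, and their TPM depends on the effective length, the number of positions at which a fragment can start. The median length of members was 834 bases, against 1110 bases over all transcripts. Under 600 bases were 36% of members and 21.9% of all transcripts, and under 300 bases 8% and 7.47%. Transcripts lower on low-melanin necromass or on glucose alone had medians of 934.5 and 1266 bases. Those higher on high-melanin necromass, low-melanin necromass or glucose alone had medians of 1107, 1209 and 843 bases. All 50 lengths are multiples of 3, as are 99.6% of all lengths in the tables. Transcript jgi.p|Traver1|14880, of 225 bases, had 68.5, 53.8 and 49.995 TPM on high-melanin necromass, 344, 717 and 410.4 TPM on low-melanin necromass and 546, 508 and 363 TPM on glucose. Its effective length was 54.2 to 57.9 bases in high-melanin libraries, 57.5 to 64.9 in low-melanin libraries and 51.4 to 54.7 in glucose libraries. From counts its log2 fold changes were -3.34 ± 0.23 against low-melanin necromass and -3.06 ± 0.22 against glucose (SE). Mean fragment lengths were 267 to 293 bases on high-melanin necromass, 249 to 274 on low-melanin necromass and 291 to 344 on glucose.

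On glucose, a single library held most of the summed level of jgi.p|Traver1|7442, a transcript of 318 bases. It had 6.28, 5.14 and 5.96 TPM on high-melanin necromass, 12.7, 24.0 and 21.0 TPM on low-melanin necromass and 56.8, 7.59 and 12.0 TPM on glucose. Glucose replicate 1 stood far above the other glucose libraries, and glucose replicate 2 lay only 1.21 times above the highest high-melanin library, the narrowest gap among the members. Its log2 fold changes were -1.94 ± 0.69 against low-melanin necromass and -1.94 ± 0.68 against glucose (SE), and without glucose replicate 1 the second was -0.67. With mean fragment length as a covariate it was -0.11. Glucose replicate 1 also had the longest mean fragments, 344 bases, so this value and -0.67 are not independent. Each call of jgi.p|Traver1|7442 in edgeR ended in 9 of 18 alternative fits, over which the log2 fold change against low-melanin necromass ran from -2.73 to -1.77. The coefficient of variation over the 6 libraries was 80.3% here, and 36.1% in jgi.p|Traver1|5452 and 35.3% in jgi.p|Traver1|7837, the next most variable members named. Transcript jgi.p|Traver1|7837 had 13.2, 13.0 and 9.78 TPM on high-melanin necromass, 37.7, 75.9 and 70.5 TPM on low-melanin necromass and 50.7, 37.0 and 34.9 TPM on glucose.

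The remaining 29 members had mean levels of 0.616 to 128 TPM on high-melanin necromass, 3.19 to 338 TPM on low-melanin necromass and 3.93 to 399 TPM on glucose. Their ratios by the rule ran from 2.57 to 4.53, and their gaps between the nearest libraries from 1.85 to 3.69 times. Among all 50 members, 2 pairs carry consecutive identifiers, jgi.p|Traver1|7103 with jgi.p|Traver1|7104 and jgi.p|Traver1|9420 with jgi.p|Traver1|9421. The tables give no positions, so whether such transcripts are neighbours in the genome is not known here.

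The thresholds fell within a continuous range of values. Just inside the 2.5-fold threshold, jgi.p|Traver1|12505 had a ratio of 2.505, with 6.93 ± 1.3 TPM on high-melanin necromass, 18.9 ± 5.1 TPM on low-melanin necromass and 24.3 ± 6.3 TPM on glucose, and jgi.p|Traver1|11790 had a ratio of 2.52, with 8.73 ± 1.1, 23.5 ± 5.1 and 31.6 ± 6.8 TPM. Just outside it was a transcript more abundant than any member, jgi.p|Traver1|11082, with a ratio of 2.47 and means of 4218 TPM on high-melanin necromass, 11680 TPM on low-melanin necromass and 10430 TPM on glucose. After it came jgi.p|Traver1|1260 with a ratio of 2.45 and means of 44.1, 109.7 and 117 TPM. On the ratio of low-melanin necromass to glucose, jgi.p|Traver1|7837 lay just inside at 1.49 and jgi.p|Traver1|8323 just outside at 1.503. At the other end jgi.p|Traver1|15036 lay inside at 0.692 and jgi.p|Traver1|106 outside at 0.633.

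The estimated counts were then fitted in edgeR over all genes of the fungus that passed a filter on low counts, 13340 in number, which all 50 members passed. The rule had used these libraries, so the fit describes the members on another scale and is no support for them. All 50 were called lower between high-melanin and low-melanin necromass, where 27.8% of all genes were called lower. Likewise all 50 were called lower on high-melanin necromass than on glucose, where the background was 27.7%, and 11.2% of all genes were called lower in both comparisons, which share the high-melanin libraries. The median log2 fold change of the members was -2.09 against low-melanin necromass and -1.92 against glucose, while the medians over all genes were both -0.01. One member, jgi.p|Traver1|7442, lost either call in part of the alternative fits, as given above. In CPM the high-melanin libraries of all 50 members lay below their other 6 libraries, as they did for 13.8% of all genes fitted, while the whole rule on CPM kept 43 of the 50.

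Whether members kept the same level on low-melanin necromass as on glucose depended on the scale. In mean TPM 20 of the 50 stood higher on low-melanin necromass and 30 lower, whereas in mean TMM-scaled CPM 30 stood higher and 20 lower. The ratio in CPM was within 1.5-fold for 45 members. Between low-melanin necromass and glucose 9 members were called higher, where 30.4% of all genes were, and 2 were called lower, where 32.4% of all genes were. That left 39 members called lower in both high-melanin comparisons and not called in this one, a class that held 5.81% of all genes. The members called lower were jgi.p|Traver1|15036 and jgi.p|Traver1|12798, the second named for this count after its value was seen, with log2 fold changes of -0.39 ± 0.12 and -0.34 ± 0.12 (SE). The largest called increases were 0.85 ± 0.19 in jgi.p|Traver1|1996 and 0.85 ± 0.18 in jgi.p|Traver1|7837.

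The median log2 fold change of the members for low-melanin necromass against glucose was 0.07 with TMM and -0.04 over all genes. Scaled by library size alone these medians were -0.21 and -0.32, and with upper-quartile scaling -0.17 and -0.28. The members' median stood 0.11 above that of all genes in all 3. Over every alternative fit this offset ran from -0.05, with mean fragment length as a covariate, to 0.17, without glucose replicate 2.

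**Figure D4:**
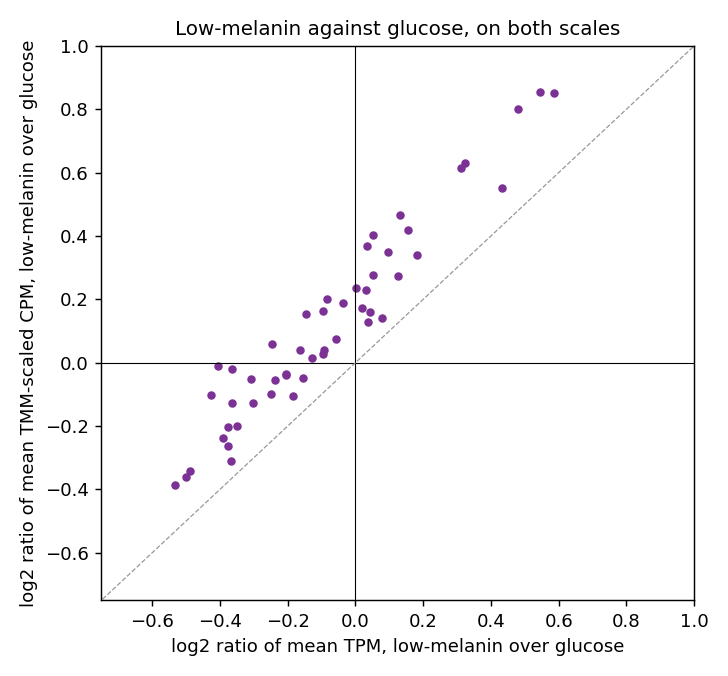
Log2 ratio of low-melanin necromass over glucose for the 50 members, from mean TPM (horizontal) and from mean TMM-scaled CPM (vertical); each point is a member and the broken line marks equal ratios. All points lie above the line, and 30 members are above 0 in CPM, against 20 in TPM.

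Low-melanin replicate 1 differed from the other libraries on the TPM scale. It was the lowest of the 6 low-melanin and glucose libraries for 29 of the 50 members in TPM but for 4 in TMM-scaled CPM. The transcripts jgi.p|Traver1|7139 and jgi.p|Traver1|7140, which are 63 and 108 bases long and no members, took 25.9% of its TPM from 1.11% of its estimated counts. In the other 8 libraries they took 2.41% to 7.64% of TPM from 0.152% to 0.304% of counts. Over the 12472 transcripts averaging at least 1 TPM, 93.8% were lower in low-melanin replicate 1 than in replicate 2, as were 98% of members. With TPM rescaled so that transcripts of at least 300 bases have the same sum in every library, a setting chosen after seeing these shares, the rule again chose 50 transcripts, 47 of them members. Without low-melanin replicate 1 it chose 51, 47 of them members.

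To read the pattern in libraries left out of each round of choice, the rule was applied to the 6 libraries of 2 replicate numbers. The 3 libraries of the third number were then examined. Leaving out replicate 1, the rule chose 64 transcripts, and the left-out high-melanin library was the lowest of its 3 for 61 of them, as it was for 15.2% of all transcripts. In those left-out libraries 38 of the 64 again stood at least 2.5-fold lower on high-melanin necromass than on both other carbon sources, where 0.532% of all transcripts did. A like level on low-melanin necromass and glucose was met as well by 27 of the 64, against 0.276% of all transcripts. Leaving out replicate 2, 47 were chosen, and 46 had the lowest level on high-melanin necromass, against 29.7% of all transcripts. Of the 47, 39 passed 2.5-fold, against 1.03%, and 30 also had the like level, against 0.506%. Leaving out replicate 3, 48 were chosen, and all 48 had the lowest level there, against 20.8% of all transcripts. Of the 48, 43 passed 2.5-fold, against 0.743%, and 38 also had the like level, against 0.423%. The median of the smaller ratio in the left-out libraries was 2.67, 3.73 and 3.03 for the chosen transcripts and 0.773, 0.922 and 0.824 for all transcripts. Of the chosen transcripts 47, 41 and 43 were members. The rule was chosen with earlier results of these data known, and separate cultures are not stated. The left-out libraries may therefore not be independent of the choice. The background of 15606 transcripts holds 12472 that average at least 1 TPM, and those below can seldom pass 2.5-fold with 1 added. Transcripts without counts in the left-out libraries cannot count as lowest on high-melanin necromass, so they lower the shares of 15.2%, 29.7% and 20.8%. Each reading rests on 1 library per carbon source, so no test was made. The ratio in replicate 1 was the lowest of the 3, as was the 15.2% of all transcripts lowest on high-melanin necromass. Both include low-melanin replicate 1, the library described above, whose part in these values was not tested.

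**Figure D5:**
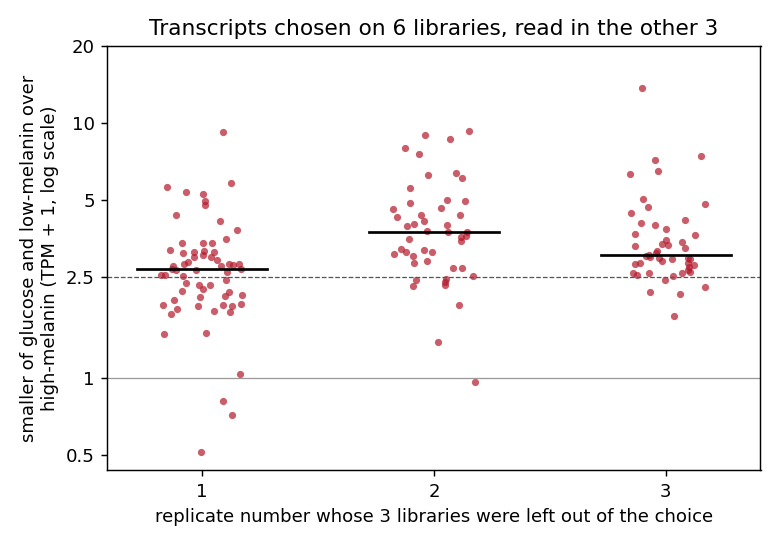
Ratio of the smaller of the glucose and low-melanin values to the high-melanin value (TPM + 1, log axis) in the 3 libraries of the replicate number left out, for the transcripts chosen on the other 6 libraries; each point is a transcript, the bars are medians of 2.67, 3.73 and 3.03, and the broken line marks 2.5. Most points lie above 1, with the lowest values at replicate 1.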

How the data were processed

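RNA was sequenced from *T. versicolor* grown on 3 carbon sources, with 3 libraries each. TRIzol, a PureLink column kit and NEBNext Ultra II library preparation were used, per the labels' protocols. The tools named are DESeq2 1.48.2 and kallisto 0.51.1, per the submitters' processing notes, and the transcript set and build are not given in the sources used here. The authors deposited, per library, estimated counts, TPM, lengths and effective lengths per transcript.

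The rule was applied to the deposited TPM. The members and lists were chosen with earlier results of these data known. Estimated counts were rounded, filtered with filterByExpr, scaled with TMM and fitted over 9 libraries with carbon source as the only term (edgeR 4.0.16, quasi-likelihood test, robust, R 4.3.3). A call means that p, adjusted by Benjamini-Hochberg across the 13340 fitted genes, was under 0.05. SE was taken as the log2 fold change over the root of the F statistic. The fit was tested on simulated counts with known changes. DESeq2 1.42.0 served as an alternative.

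Named members, 21 in all, are the 10 most abundant, the 8 with the largest ratios, the 3 highest on high-melanin necromass, the 3 most and 3 least variable (the ratio and variability sets from a mean of 10 TPM), and the 2 nearest to the 2.5-fold threshold. Mean fragment length is the median of length minus effective length over transcripts above 2000 bases. The 9 *G. trabeum* libraries were not used. No 2 libraries of a group agreed within sampling noise (lowest chi-square per degree of freedom 16.9).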

Additional observations from a re-analysis of the deposited data

How the results depend on the processing

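Of the 50 members, 49 kept both calls of lower level on high-melanin necromass under all 18 alternative fits. Transcript jgi.p|Traver1|7442 lost at least 1 of these calls in 12 fits. The members were chosen by this difference in these libraries, so the kept calls describe the choice. Over the same fits 1177 to 1783 of all genes were called lower in both comparisons, against 1498 in the main fit. The condition on overlap, left out, changed nothing, and TPM rescaled without short transcripts, an alternative chosen after seeing the data, gave 50 transcripts. The rule chose 89 transcripts at 2-fold and 13 at 4-fold, and 46 to 57 when a library was left out. Scaled by library size alone, 2699 genes were called higher on low-melanin necromass than on glucose in place of 4059, and 4 members were higher and 13 lower in place of 9 and 2, where 20.2% of all genes were higher and 45.5% lower. With upper-quartile scaling 4 members were higher and 12 lower, where 21.4% of all genes were higher and 44.2% lower. With fragment length as a covariate 4 members were higher and 2 lower, where 2784 genes (20.9%) in place of 4059 were higher and 2733 (20.5%) in place of 4321 were lower. Leaving out 1 library gave 1 to 7 members lower, where 28.5% to 33.0% of all genes were lower. The count was 7 without glucose replicate 1 and 1 without glucose replicate 2, low-melanin replicate 1 or low-melanin replicate 3. The cause of these moves was not tested. Of the called genes, 48.4% were higher between low-melanin necromass and glucose, while this was 30.8% when scaled by library size and 32.6% by upper quartile. Between the necromass types 48.6% were higher on the high-melanin type, against 62.8% by library size alone, and between high-melanin necromass and glucose 49.2%, or 36.7% by upper quartile. Deviations of same-numbered libraries correlated from -0.18 to 0.07, and those of differently numbered libraries from -0.07 to 0.15. No shared deviation was thus seen, which cannot show how the libraries were made. With the replicate number as a block 49 members were lower than on glucose and 50 lower than on low-melanin necromass. Over the 18 alternative fits 3171 to 4677 of all genes were lower than on glucose. Lower than on low-melanin necromass were 2702 to 4166. No paired value moved a count of members by over 1.5 times. The lowest count of any member was 6 to 14 estimated counts in the high-melanin libraries, which limits the precision of the least abundant members.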
